A study of Homo sapiens with 6 samples.

Results

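The genes described here are 41 members of the machinery that copies DNA in S phase, together with a few regulators of entry into that phase. They are a list of gene symbols, and every probe of the array whose annotated symbol was one of these names was taken. All 41 had at least 1 probe, 61 probes in total, of 18852 genes named on the array. A probe was kept for testing if it was above background (detection p under 0.01) on at least 3 of the 6 arrays, which left 38 members with 56 probes, of 11133 genes with 18732 probes. GINS1, CCNE2 and E2F1 were below background on all 6 arrays and have no value here.

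ES-2, the source of the RNA, is a human cell line established from a clear cell carcinoma of the ovary and was grown in medium with serum. In one group the cells received 65 nM of a synthetic mir-22 mimic, a double strand that acts as the microRNA does. In the other they received a negative control mimic built on worm microRNAs, for which the labels give no dose. Both groups were transfected with the same reagent and harvested after 48 hours, and each group has 3 arrays, called biological replicates in the labels. Nothing says whether these were separate cultures or days, so the p-values cover only array-to-array spread, which may be technical. Total RNA of whole cultures was measured, so fewer cells in S phase and less transcript per cell cannot be told apart.

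Before a cell divides, origins are licensed in G1: the origin recognition complex, CDC6 and CDT1 load the ring of MCM proteins, the core of the replicative helicase, onto DNA. Geminin, the product of GMNN, binds CDT1 and blocks further loading once S phase has begun. CDC45 and the GINS complex then switch the helicase on. The polymerase alpha and primase complex starts each new strand, the clamp loader RFC places the sliding clamp PCNA on it, and polymerases delta and epsilon extend it. Ribonucleotide reductase and thymidylate synthase supply the nucleotides. Many of these genes are switched on by E2F transcription factors at the border between G1 and S.

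The RefSeq sequence of the microRNA for which the mimic is named and the promoters of the called genes are shown first. The microRNA stands in for the mimic, whose own sequence is not given here. Whether the sequences shown bear on the changes was not tested. The mature 3p strand of mir-22 in RefSeq, from chr17:1713914-1713935 on the minus strand of GRCh38.p14, is 22 bases long, and its seed, the stretch from base 2 to base 8 that pairs with target transcripts, is in capitals.

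hsa-miR-22-3p: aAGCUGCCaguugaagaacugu

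Next are the promoters of the 3 called members, each running from 250 bases before to 50 bases after the gene's start in RefSeq (GRCh38.p14). Capitals mark the E2F-type motif, searched on both strands as TTTGGCGC, TTTCCCGC, TTTCGCGC or TTTGCCGC. They lie at chr6:24774687-24774986 (GMNN), chrX:24693668-24693967 (POLA1) and chr13:33817899-33818198 (RFC3), all on the plus strand.

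GMNN: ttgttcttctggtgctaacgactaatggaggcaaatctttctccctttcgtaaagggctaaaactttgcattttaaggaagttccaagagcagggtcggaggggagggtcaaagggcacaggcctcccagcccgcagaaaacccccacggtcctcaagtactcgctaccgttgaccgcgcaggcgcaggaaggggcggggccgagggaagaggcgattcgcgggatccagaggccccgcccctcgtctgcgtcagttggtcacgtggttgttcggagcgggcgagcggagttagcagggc
POLA1: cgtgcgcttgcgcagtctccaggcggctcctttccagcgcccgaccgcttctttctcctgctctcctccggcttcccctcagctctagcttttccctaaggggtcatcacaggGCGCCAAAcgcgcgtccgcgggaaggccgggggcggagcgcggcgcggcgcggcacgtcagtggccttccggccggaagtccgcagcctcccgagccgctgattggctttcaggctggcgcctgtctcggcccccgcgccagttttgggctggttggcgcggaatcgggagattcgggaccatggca
RFC3: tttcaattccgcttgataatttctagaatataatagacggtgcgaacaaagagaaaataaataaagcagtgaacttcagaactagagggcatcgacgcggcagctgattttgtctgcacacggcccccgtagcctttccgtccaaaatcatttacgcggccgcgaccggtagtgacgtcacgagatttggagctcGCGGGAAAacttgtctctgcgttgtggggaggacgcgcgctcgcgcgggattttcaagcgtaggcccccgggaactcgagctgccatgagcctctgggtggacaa

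POLA1 and RFC3 each hold 1 match, 137 and 55 bases before the gene's start, both on the strand opposite to the gene. The GMNN window holds none of these letters. Of the 37 members with a promoter in the table, 19 (51.4%) held the motif, against 908 of 27305 promoters of the same length (3.33%) and 496 of 9129 promoters of genes with a kept probe (5.43%). The 17 tested members with the motif had a median log2 fold change of -0.17, with 14 of them below 0. The 18 tested members without it had a median of -0.04, with 10 below 0. Some of these signs changed without control mimic replicate 3, an array described below. Of the members without the motif, MCM10, RFC1, RFC2 and RPA1 then fell below 0, and TK1 and CCNE1 rose above it. Of those with the motif, PCNA fell below 0. The split was not made over all genes and was not tested. A match to these letters is a description of the promoter and not a measured binding site.

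One array of the control group stood apart. Over the kept probes, log2 intensities correlated at 0.995 to 0.998 among the mimic arrays, while the correlation of control mimic replicate 3 with replicates 1 and 2 of its group (0.980 and 0.981) was below theirs with each other (0.997). That array also had the fewest detected probes (17465, against 18185 to 19244) and the lowest upper quartile of raw intensity (78.1, against 80.0 to 96.2). Values without it are given below where it moved a difference by more than 1.5 times or changed a call or a sign. As a check on the label, the epithelial keratin genes KRT7, KRT8 and KRT18 were detected on all 6 arrays, while NAPSA, PAX8, GPX3, KRT19 and EPCAM were detected on none. ANXA4 was detected on 3 of 6 arrays and MUC16 on 5. Of the leukocyte and endothelial markers, PTPRC and VWF were detected on no array, and CD14, CD68, PECAM1 and CDH5 by at least 1 probe on all 6.

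The replication genes did not respond as 1 block. Geminin's gene GMNN rose 2.24-fold, the polymerase gene POLA1 and the clamp loader gene RFC3 fell by 26.0% and 26.1%, and the other 35 tested members did not pass the threshold. The 3 calls are 7.89% of 38 members, and 7.61% of all 11133 genes were called. Over all 6 arrays the number called thus does not set the members apart. Leaving out control mimic replicate 3, the same 3 were called (7.89%), against 16.2% of all genes. Called lower were 2 of 38 members (5.26%, against 4.14% of all genes), and called higher was 1 (3.47% of all genes). Calls are at an adjusted p under 0.05 in limma's moderated test of each gene's brightest kept probe, with Benjamini-Hochberg adjustment over all 18732 probes. At an unadjusted p under 0.05, 9 members were lower (23.7%, against 14.2% of all genes) and 1 was higher. With median scaling of the arrays in place of quantile normalisation, 1 was lower (2.63%, against 6.11%) and 2 were higher, so the larger share of lower members was not seen with that scaling.

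Most members that did not pass lay slightly below their control level. The median log2 fold change over the 38 members was -0.12, against -0.02 over all genes, and 27 members lay below 0 (71.1%, against 53.0% of all genes). Leaving out control mimic replicate 3 gave a median of -0.09, against -0.003 over all genes, with 30 members below 0 (78.9%, against 50.5%). Mimic and control arrays did not overlap for 14 members on the lower side (36.8%, against 19.5% of all genes) and for 2 on the higher side (GMNN and RFC5, against 14.8%). Against the mean of control mimic replicates 1 and 2, the member median was -0.14, -0.10 and -0.05 on mimic replicates 1, 2 and 3, and 0.12 on control mimic replicate 3. Over all genes that array also lay at 0.12, while the mimic arrays lay between -0.007 and 0.01. With median scaling of the arrays, which moved the median of all genes by 0.115, 18 members lay below 0 (47.4%, against 34.2% of all genes) and the member median was 0.01, or -0.09 relative to all genes, against -0.10 relative to all genes with quantile normalisation.

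**Figure D1:**
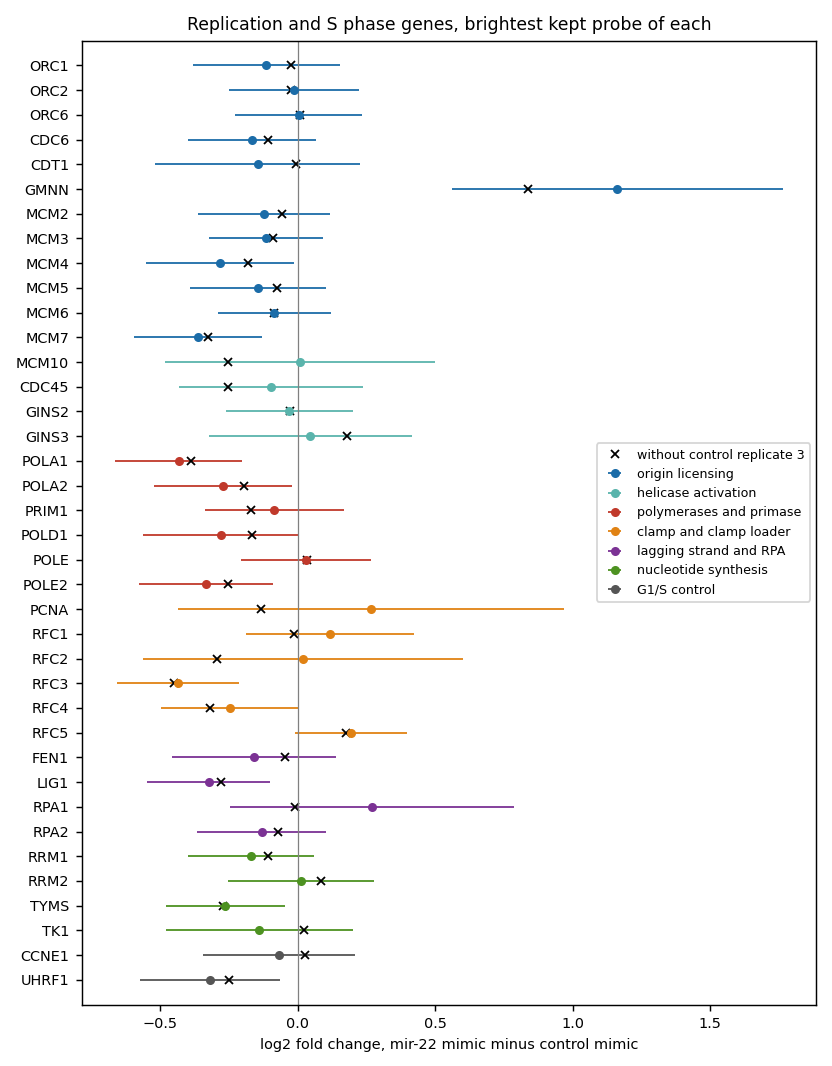
Log2 fold change (mir-22 mimic minus control mimic, x axis) of the brightest kept probe of each of the 38 tested members, coloured by role; bars are 95% confidence intervals from limma's moderated test and crosses are the values without control mimic replicate 3. GMNN lies alone on the right at 1.16, and POLA1 and RFC3 lie farthest left at -0.43 and -0.44. PCNA, GMNN, RFC2, RPA1 and MCM10 have the widest intervals.

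Among the licensing genes, GMNN had the largest change of any member. Its log2 intensity was 8.98, 9.03 and 8.59 on mimic replicates 1, 2 and 3, and 7.99, 8.07 and 7.05 on control mimic replicates 1, 2 and 3. Every mimic array lay above every control array, and control mimic replicate 3 was the lowest, 0.97 below the mean of the other controls. The difference was 1.16 ± 0.26 on the log2 scale (moderated SE, 3 arrays per group), a 2.24-fold rise (95% interval 0.56 to 1.76 in log2, adjusted p = 0.0398, limma). Without control mimic replicate 3 it was 0.84 ± 0.13, or 1.79-fold, with an adjusted p of 0.0044 in limma. In the matched replicate numbers it was higher by 0.99, 0.96 and 1.53. GMNN had 1 probe, so no other probe of the array bears on it.

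CDT1, the loading factor that geminin binds, did not pass. It was at 9.29, 9.57 and 9.70 on the mimic arrays and at 9.42, 9.63 and 9.94 on the controls, so the groups overlapped, with a log2 difference of -0.15 ± 0.16 that became -0.01 ± 0.13 without control mimic replicate 3. CDC6, the ATPase that recruits the MCM ring together with CDT1, was at -0.17 (adjusted p = 0.366, limma) with groups that did not overlap, and at -0.11 without that array. Of the origin recognition subunits, none of which passed, ORC1 was at -0.11, ORC2 at -0.01 and ORC6 at 0.003, and the other probe of ORC6 at 0.22. The same 4 probes were at -0.02, -0.02, 0.009 and 0.11 without control mimic replicate 3.

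All 6 genes of the MCM ring had negative values, from -0.36 to -0.09, except that MCM3 (0.07) and MCM6 (0.05) lay above 0 with median scaling, and none passed, MCM4 and MCM7 being under 0.05 before adjustment in limma. MCM7 was lowest, at 12.26, 12.18 and 12.05 on the mimic arrays against 12.46, 12.52 and 12.60 on the controls. The mimic arrays were all below the controls, by 0.36 ± 0.10 on the log2 scale (adjusted p = 0.0758, limma). This probe passed under 4 of the 16 alternative settings: the deposited value table (adjusted p = 0.0389), no background correction (0.042), a trended robust variance (0.0277) and array weights (0.0139, limma). Its other probes were at -0.50 (adjusted p = 0.0716) and -0.15 (0.44). Without control mimic replicate 3 these 3 probes were at -0.33, -0.39 and -0.08, and the one at -0.39 passed (adjusted p = 0.0473, limma). MCM4 was at -0.28, MCM5 at -0.15, MCM2 and MCM3 both at -0.12 and MCM6 at -0.09. Leaving out that array put MCM4 at -0.18, MCM5 at -0.08 and MCM2 at -0.06, while MCM3 and MCM6 were both at -0.09. The other probes of MCM3 and MCM4 were at 0.01 and -0.14, and at 0.04 and -0.10 without that array. Over the 12 licensing genes, GMNN included, the median was -0.12, with 10 below 0, and -0.07 without that array.

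None of the 4 tested helicase activation genes passed. Their median was -0.01, but it was -0.14 without control mimic replicate 3, -0.10 with array weights and 0.13 with median scaling. CDC45, the partner that with GINS completes the active helicase, was at 10.10, 10.02 and 9.98 on the mimic arrays and at 10.38, 10.19 and 9.82 on the controls. Control mimic replicate 3 lay below all mimic arrays and the other controls above them, so the difference of -0.10 ± 0.15 became -0.25 ± 0.10 (adjusted p = 0.11, limma) without that array. The brightest probe of MCM10, a factor that helps to activate the helicase, behaved likewise, with 0.01 over all arrays and -0.26 without control mimic replicate 3. Its other probe was at -0.21, with groups that did not overlap, and at -0.20 without that array. GINS2 was at -0.03 with and without that array, and GINS3 went from 0.05 to 0.18.

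The polymerase and primase genes had the lowest median of the 7 roles, -0.28 over 6 genes, with 5 below 0 and 4 whose groups did not overlap. The mean over a gene's probes was an exception, with -0.24 for G1/S control against -0.23 for the polymerases. POLA1, the catalytic subunit of polymerase alpha, was at 7.55, 7.42 and 7.51 on the mimic arrays and at 7.81, 7.95 and 8.01 on the controls. No array of one group reached the other, and the difference was -0.43 ± 0.10 on the log2 scale, a level 26.0% lower (95% interval -0.66 to -0.20 in log2, adjusted p = 0.043, limma). Without control mimic replicate 3 it was -0.39 ± 0.09 (adjusted p = 0.0229). A dim second probe of POLA1, detected on 4 of the 6 arrays, did not show this change, but the processing understates fold changes at such levels. It was at 4.77, 4.93 and 4.48 on the mimic arrays and at 4.75, 4.87 and 4.37 on the controls. The difference was 0.06 ± 0.16, or -0.08 ± 0.13 without control mimic replicate 3.

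None of the other polymerase genes passed, and POLE2 and POLA2 were under 0.05 before adjustment. POLE2, the accessory subunit of polymerase epsilon, was at -0.33 (adjusted p = 0.105, limma), POLD1, the catalytic subunit of polymerase delta, at -0.28, and POLA2, the accessory subunit of polymerase alpha, at -0.27. For each of these the mimic arrays lay below all controls. Without control mimic replicate 3, POLE2 was at -0.25, POLD1 at -0.17 and POLA2 at -0.19. PRIM1, the catalytic primase subunit, was at -0.09 with its brightest probe (-0.17 without that array) and at -0.27 with the other, and POLE, the catalytic subunit of polymerase epsilon, was at 0.03. The median of the 6 genes was -0.18 without control mimic replicate 3, where that of the clamp and its loader was lower.

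The genes of the clamp and its loader had values of both signs over all 6 arrays. Without control mimic replicate 3 only RFC5 lay above 0 by brightest probes, and differences between these genes were not tested. RFC3, a small subunit of the loader, was at 8.67, 8.65 and 8.79 on the mimic arrays and at 9.09, 9.22 and 9.11 on the controls. The groups were well apart, and the difference was -0.44 ± 0.10 on the log2 scale, a level 26.1% lower (95% interval -0.66 to -0.21 in log2, adjusted p = 0.0376, limma). Its other probes were at -0.34 ± 0.14 (adjusted p = 0.188) and -0.37 ± 0.11 (0.0933), so the 3 probes had similar values though 1 passed. Without control mimic replicate 3 they were at -0.45, -0.48 and -0.35, and the first and second passed (adjusted p = 0.0129 and 0.0148, limma).

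RFC5, another small subunit, had the opposite sign, 0.19 ± 0.09 (adjusted p = 0.235, limma), with every mimic array above every control. With their brightest probes RFC4 was at -0.25, RFC1, the large subunit, at 0.12 and RFC2 at 0.02. These were at -0.32, -0.01 and -0.30 without control mimic replicate 3. The other probes of RFC4, RFC1 and RFC2 were at 0.14, -0.31 and -0.27, and none passed. For RFC1 and RFC2 the groups did not overlap on these other probes. Leaving out that array put the other probes at -0.06, -0.24 and -0.23. PCNA, the clamp, was at 10.27, 10.18 and 9.96 on the mimic arrays and at 10.40, 10.14 and 9.07 on the controls. Its difference of 0.27 ± 0.31 rested on control mimic replicate 3, which lay 1.20 below the mean of the other controls. It was -0.14 ± 0.12 without that array. The other PCNA probes were at -0.15 and -0.10, and at -0.07 and 0.002 without that array. The median of the 6 genes went from 0.07 to -0.22 without control mimic replicate 3, and was also below 0 with array weights (-0.11) and with the mean over probes (-0.07).

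**Figure D2:**
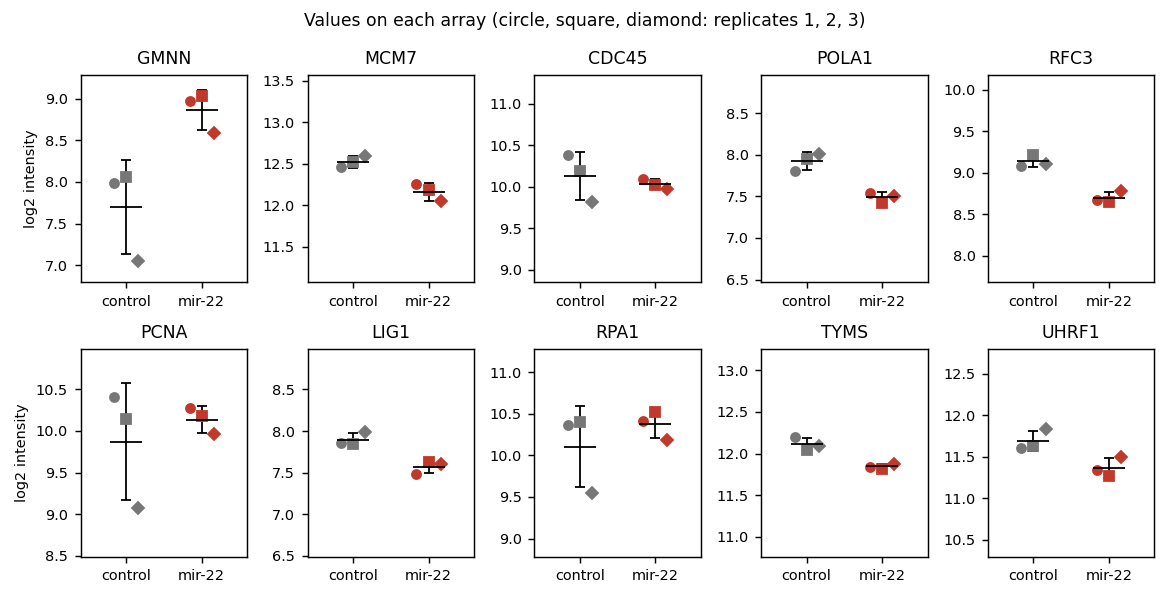
Log2 intensity (y axis) on each array for 10 members chosen by the naming rule, control mimic in grey and mir-22 mimic in red, with circle, square and diamond for replicates 1, 2 and 3; lines and bars are the mean and SD of 3 arrays, and all panels span the same range. GMNN, MCM7, POLA1, RFC3, LIG1, TYMS and UHRF1 have groups that do not overlap, while control mimic replicate 3 lies far below its group for GMNN, PCNA and RPA1.

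Of the genes for the lagging strand and for single-stranded DNA, LIG1, the ligase that joins Okazaki fragments, had the lowest value. It was at 7.49, 7.63 and 7.61 on the mimic arrays and at 7.85, 7.85 and 7.99 on the controls. These groups did not overlap, but the difference of -0.32 ± 0.10 did not pass (adjusted p = 0.0921, limma). FEN1, the flap nuclease that trims those fragments, was at -0.16 and -0.14 with its probes, and RPA2, a subunit of the protein that coats single strands, at -0.13. The brightest probe of FEN1 was at -0.05 without control mimic replicate 3, its other probe at -0.15 and RPA2 at -0.07. RPA1, the large subunit of the same protein, was at 10.41, 10.52 and 10.19 on the mimic arrays and at 10.37, 10.40 and 9.54 on the controls. Control mimic replicate 3 was the lowest, and the difference of 0.27 ± 0.22 was -0.01 ± 0.11 without it. The other probe of RPA1 was at -0.23, and at -0.11 without that array.

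Of the nucleotide synthesis genes none was called and 1, TYMS, was under 0.05 before adjustment in limma, with a median of -0.15 over 4 genes, or -0.04 without control mimic replicate 3. TYMS, thymidylate synthase, was at 11.84, 11.82 and 11.88 on the mimic arrays and at 12.20, 12.04 and 12.09 on the controls. The mimic arrays were close to one another and below every control, with a difference of -0.26 ± 0.09 (adjusted p = 0.14, limma) that was -0.27 without control mimic replicate 3. Of the subunits of ribonucleotide reductase, the large, RRM1, was at -0.17 with groups that did not overlap and the small, RRM2, at 0.01. They were at -0.11 and 0.08 without that array. Their 95% intervals over all arrays overlapped (-0.40 to 0.06 and -0.25 to 0.28), and the difference between them was not tested. TK1, the salvage enzyme thymidine kinase, was at -0.14, and at 0.02 without control mimic replicate 3.

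Of the 4 regulators of S phase entry and of replicated chromatin, only UHRF1 and CCNE1 were measured. UHRF1, which brings the maintenance DNA methyltransferase to newly copied DNA, was at 11.34, 11.27 and 11.50 on the mimic arrays and at 11.61, 11.63 and 11.83 on the controls. Its groups did not overlap, and the difference of -0.32 ± 0.11 did not pass (adjusted p = 0.131, limma), nor did that of its other probe, -0.49 ± 0.16 (0.117). These probes were at -0.25 and -0.31 without control mimic replicate 3, and neither passed. CCNE1, the cyclin that drives entry into S phase, was at -0.07, and at 0.03 without that array.

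**Figure D3:**
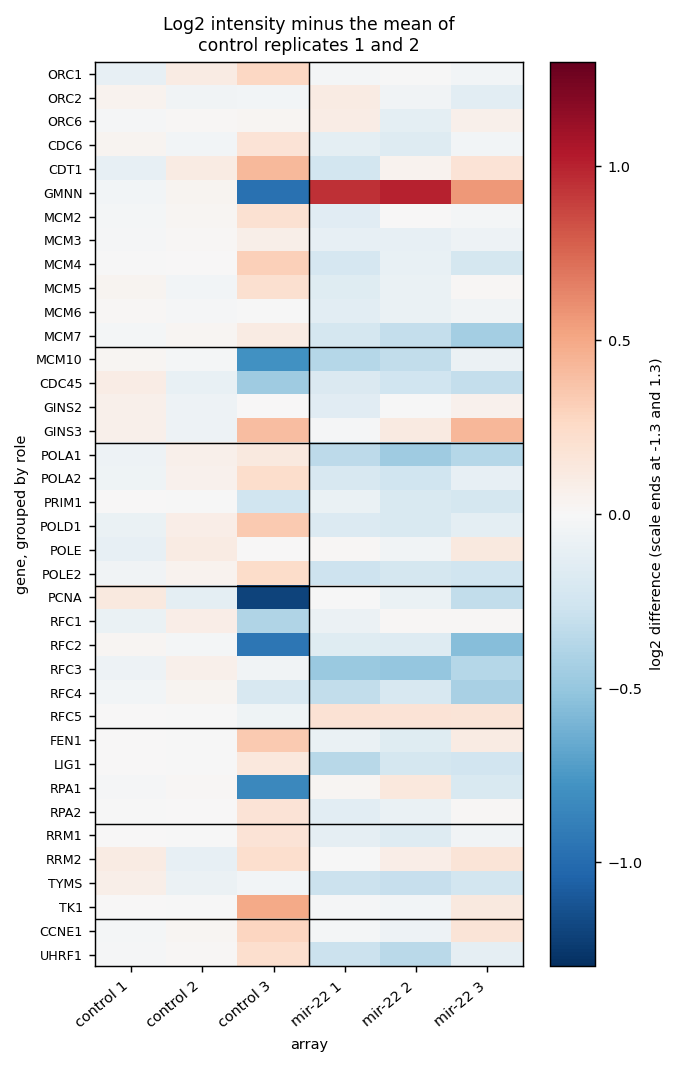
Log2 intensity of the 38 tested members on each of the 6 arrays, as the difference from the mean of control mimic replicates 1 and 2 (red higher, blue lower), with black lines between the 7 roles. GMNN is the strongly red row on the mimic arrays, POLA1, RFC3 and MCM7 are blue on all 3 mimic arrays, and control mimic replicate 3 is dark blue for GMNN, PCNA, RFC2, RPA1 and MCM10 but pale red for many others.

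The 3 calls were close to the threshold. All of them ended with median scaling (adjusted p = 0.0922 for GMNN, 0.238 for POLA1 and 0.26 for RFC3), with no sharing of variance between probes (0.193, 0.0768 and 0.0609) and whenever 1 array other than control mimic replicate 3 was left out (0.0534 to 0.162, 0.0633 to 0.192 and 0.0779 to 0.174, limma); GMNN was also lost with no filter on dim probes (0.131) and with a trended robust variance (0.0683), and POLA1 with the mean over its probes (0.316, where the log2 difference was -0.19). When arrays were weighted by their quality, which gave control mimic replicate 3 a weight of 0.143 against 0.706 to 2.73 for the others, 10 members were called, 9 of them lower (26.3% of 38, against 26.3% of all genes; 23.7% lower, against 13.6%).

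Where a member had several kept probes, their values often had opposite signs, and less often so without control mimic replicate 3. A sign can rest on a value within its SE, as with 0.01 ± 0.09 for the other probe of MCM3 and 0.02 ± 0.25 for the brightest of RFC2. Of 15 members with 2 or more kept probes, 8 had probes of opposite sign (53.3%, against 34.5% of 2915 such genes on the array). Leaving out control mimic replicate 3, it was 2 of the 15, MCM3 and PCNA, against 915 of the 2915 genes (31.4%). On that array 6 of 56 member probes (10.7%, against 11.9% of all kept probes) lay more than 0.5 below the mean of the other controls, those of GMNN, MCM10, PCNA, RFC2 and RPA1 and the second probe of RFC4. For MCM10, PCNA, RFC2 and RPA1 another probe of the same gene lay above that mean on the same array. For PCNA the probes lay -1.20, 0.24 and 0.32 from it, and for RPA1 -0.84 and 0.37. What sets these probes apart was not tested, since no probe sequences were used here.

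**Figure D4:**
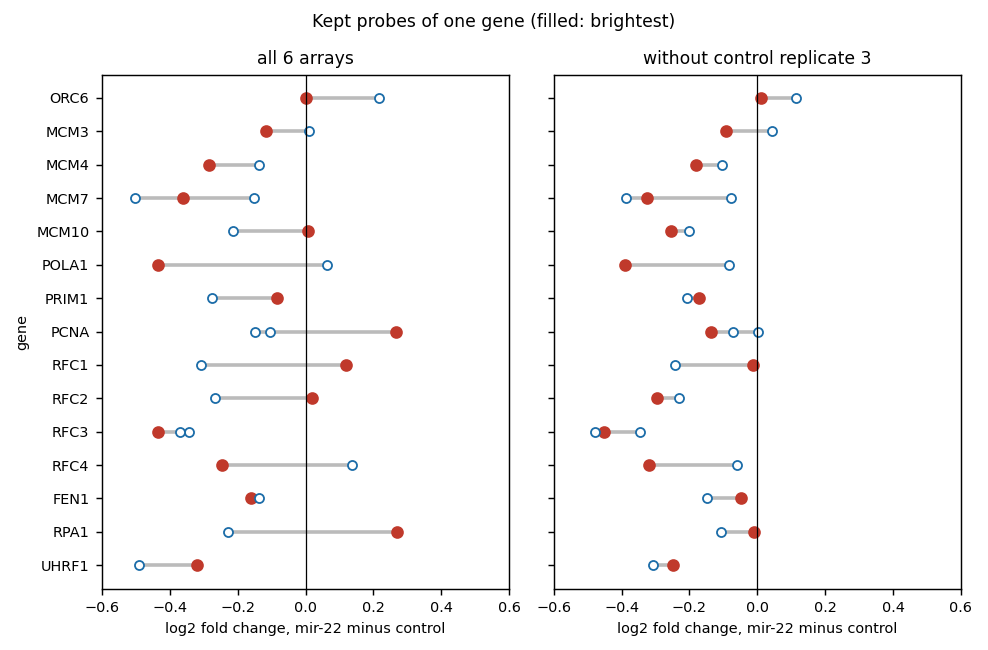
Log2 fold change (mir-22 mimic minus control mimic, x axis) of every kept probe of the 15 members with 2 or more, over all 6 arrays on the left and without control mimic replicate 3 on the right; filled red points are the brightest probe, open points the others, and grey bars span them. On the left 8 genes straddle 0, and on the right 2 do, with RFC1, RFC2, RPA1 and MCM10 shifted to the negative side.

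Genes of replication and of G1/S control outside the members gave a similar picture. Of 72 such genes, chosen by function with earlier results of these data known, 69 had a kept probe. They are called the other replication genes below. Some of them copy no DNA, among them the inhibitors of cyclin-dependent kinases CDKN1A and CDKN1B, so a lower value is not always less of the copying machinery. Of the 69, 2 were called lower (2.90%, against 4.14% of all genes) and none higher. At an unadjusted p under 0.05 in limma, 14 were lower (20.3%, against 14.2% of all genes). On the higher side there were 3, against 1265 of all 11133 genes. With median scaling of the arrays 5.80% were lower, against 6.11% of all genes. The median of the 69 was -0.09, with 46 below 0 (66.7%, against 53.0%). E2F2, a transcription factor of the family that activates S phase genes, was at 6.18, 6.19 and 6.54 on the mimic arrays and at 6.89, 6.86 and 7.25 on the controls. Its groups did not overlap and it fell by 0.70 ± 0.15 on the log2 scale (adjusted p = 0.0344, limma), to a level 38.2% lower. ASF1B, a histone chaperone that works behind the fork, was at 8.38, 8.57 and 8.57 on the mimic arrays and at 8.91, 9.09 and 9.14 on the controls.

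ASF1B likewise had no overlap between groups, with a difference of -0.54 ± 0.11 (adjusted p = 0.0275, limma). By role, called lower were 1 of 21 polymerase and fork genes (ASF1B) and 1 of 20 genes of G1/S control (E2F2). None of 14 origin and helicase genes or of 14 nucleotide synthesis genes was called. Of these, 1 and 5 were under 0.05 before adjustment in limma, against 2850 of all 11133 genes. With the replicate number as a block, 4 of the 69 were called, a smaller share than the 1101 of all 11133 genes. All 4 were lower, a share close to that of all genes, of which 579 of 11133 were called lower. The calls added were UMPS, an enzyme of pyrimidine synthesis, and the inhibitor of cyclin-dependent kinases CDKN1A. Leaving out control mimic replicate 3, 9 were called (13.0%, against 16.2% of all genes), 7 of them lower (10.1%, against 7.63%). None of the 69 passed in limma without control mimic replicate 2 or any 1 of the mimic arrays. In these settings 9 to 12 of the 69 were under 0.05 before adjustment, against 1951 to 2561 of all 11133 genes.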

How the data were processed

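The data are 6 Illumina 1-colour bead arrays, 3 per group. Each deposited array file, per the file headers, gives each probe's mean bead intensity, bead spread, bead number and a detection score, and per the submitters' processing notes the authors used BeadStudio, with no version given. The deposited intensity values were neither background-subtracted nor normalised, and detection p was taken as 1 minus the deposited score. A deposited value table, with intensity normalised by the authors by an unstated method, names the probes; its 48803 rows were joined to the array files by value, 1 to 1. Symbols came from the platform annotation, and 28098 probes had 1 symbol, 13 several and 20692 none here.

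Intensities were processed with neqc (limma 3.58.1, R 4.3.3; offset 16, quantile normalisation, log2), which understates fold changes of dim probes; levels of different probes are not compared. All 6 arrays entered 1 fit without pairing, two-sided, and the 95% intervals are limma's. A gene is its brightest kept probe. Same-numbered arrays deviated together from their group means (r = 0.334, 0.135 and 0.434 over kept probes), so the replicate number was also used as a block. Mimic replicate 1 also deviated together with control mimic replicate 2 (0.315). Mimic replicate 2 did so more with control mimic replicate 1 (0.181) than with its own number. The pairing by number is thus not clear for replicates 1 and 2. Named with values on every array were the called members, the lowest adjusted p of each role, the 3 highest and 3 lowest fold changes, and the called genes among the others; CDT1 was added after its values were seen. The members and lists were chosen with earlier results of these data known. The number of arrays limits the precision, and the median SE of a log2 fold change was 0.122. One marker gene of the list is not reported here.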

Additional observations from a re-analysis of the deposited data

How the results depend on the processing

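Each result was recomputed under 16 alternatives. The 3 called members became 0 with median scaling (3.97% of all genes were called) and 1 (RFC5, higher) without shared variance (2.63%, against 2.03% of all genes). They became 2 with no filter (4.88% of the members, against 3.96% of all genes) and with the mean over probes (5.26%, against 8.38%). The count was 4 with the deposited value table (10.5%, against 8.97%) and without background correction (10.5%, against 9.09%). With array weights it was 10 (26.3%, against 26.3%). It ran from 0 to 3 when 1 array was left out. Where it was 0 there, limma had 6 to 10 members under 0.05 before adjustment, against 1951 to 2810 of all 11133 genes. With median scaling 3 members were, against 2478 of all genes. The 2 calls among the other replication genes became 1 with median scaling (1.45%, against 3.97% of all genes) and 4 with the deposited value table (5.80%, against 8.97%). With a trended robust variance they became 5 (7.25%, against 9.05%). They became 0 without shared variance (per-probe linear model, 15 under 0.05 before adjustment, against 2548 of all 11133 genes). They became 15 with array weights (21.7%, against 26.3%) and 4 with the replicate block (5.80%, against 9.89%), and ran from 0 to 9 when 1 array was left out. The replicate block changed no call of a member; lower members under 0.05 before adjustment went from 9 to 11, and all genes called from 847 to 1101. Over all genes, 847 were called, against 442 with median scaling, 226 without shared variance, 2927 with array weights, 95 to 156 without 1 mimic array and 421, 289 and 1807 without control mimic replicates 1, 2 and 3. Median scaling moved the share of calls that were lower from 461 of 847 to 120 of 442. It set the medians at 0.012 (members), 0.0097 (licensing), 0.134 (helicase activation), -0.144 (polymerases), 0.201 (clamp and loader), -0.00697 (lagging strand), -0.0014 (nucleotide synthesis) and -0.058 (G1/S control, which with no filter was at -0.054). When 1 array was left out, medians ran from -0.165 to -0.089 for the members, -0.167 to -0.067 for licensing, -0.141 to 0.045 for helicase activation, -0.357 to -0.183 for polymerases, -0.215 to 0.18 for the clamp and loader, -0.206 to -0.059 for the lagging strand, -0.212 to -0.044 for nucleotide synthesis and -0.262 to -0.111 for G1/S control. The cause of these changes was not tested. Of 40 genes, 21 kept their sign in every alternative, among them all that were called in any; the sign changed in 45 of 640 values, none of them past the threshold on either side.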
